A study of Mus musculus with 48 samples.

Results

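Chemokines and their receptors were described with 64 probes of 49 genes, of the 55681 probes on the array that are not controls. A probe was taken when its gene name is Ccl, Cxcl, Ccr or Cxcr followed directly by a number, with at most 1 letter after it, whatever its level. The Ccl family had 20 genes with 28 probes, the Cxcl family 13 genes with 17 probes, the Ccr family 9 genes with 11 probes and the Cxcr family 7 genes with 8 probes. Blood and the medial prefrontal cortex (mPFC) were taken from the same 24 female C57BL/6J mice, 17 weeks old, and RNA of each tissue of each mouse was hybridized to 1 one-colour array. There were 6 control mice, with a sham operation and no stress, and 6 CUMS mice, with a sham operation and chronic ultra-mild stress, a weekly schedule of mild stressors such as a tilted or soiled cage and altered light that was repeated for 6 weeks. There were also 6 OVX mice, with both ovaries removed and no stress, and 6 OVX+CUMS mice, with both. All mice had surgery under anesthesia, stress began some weeks after it, and removal of the ovaries in young adult mice stands in for menopause here without the age that goes with it. The blood was the pellet of heparinized blood from the vena cava and therefore held red cells, platelets and white cells together.

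Chemokines are small secreted proteins, named Ccl or Cxcl by the spacing of their cysteines, and they guide white cells along a gradient. Their receptors, Ccr and Cxcr, are G protein-coupled receptors that mark which cells can follow which ligand: lymphocytes use Ccr7 and Cxcr5 to enter lymph nodes and follicles, effector T cells use Cxcr3 and Cxcr6, and neutrophils use Cxcr1 and Cxcr2. In the brain, Cxcl12 and Cxcl14 are made by resident cells.

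Values are the log2 processed signal minus the 75th percentile of the array, so 0 is the signal that 75% of the probes of that array do not exceed, and they are compared within a probe only. Probes that were well above background on all 24 arrays of a tissue, with a signal over 50 on at least 2, were tested, 20767 in blood and 28358 in mPFC. The 75th percentile was 54.9 to 192 signal units in blood (81.3 to 132 in control, 54.9 to 105 in CUMS, 110 to 192 in OVX and 103 to 144 in OVX+CUMS mice) and 572 to 689 in mPFC. The arrays lay on 3 slides in the same way for both tissues: all 6 control mice were on slide 1 beside 2 CUMS mice, the other 4 CUMS mice shared slide 2 with 4 OVX mice, and the remaining 2 OVX mice were on slide 3 with all 6 OVX+CUMS mice. Control and OVX+CUMS mice shared no slide. The tissue labels were met by their markers: the median signal was 24585 in mPFC and 16.3 in blood for 8 neuron markers, and 21709 in blood and 25.6 in mPFC for 8 erythroid markers. The globin markers Hba-a1 and Hbb-b1 still had mean signals of 12677 and 7692 in mPFC, against 570688 and 442783 in blood. The part of blood RNA in the mPFC values was not tested. Of the blood arrays, 21 carried a mark of the scanning software that asks for evaluation, and no mPFC array did. The blood arrays without the mark were those of control mice 1, 3 and 4, so every CUMS, OVX and OVX+CUMS blood array carried it. The blood array of OVX+CUMS mouse 5 stood apart in neutrophil markers, and its values are given beside the myeloid genes below.

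Receptors passed the filter mainly in blood. In blood, 21 genes passed the filter with 25 probes, among them 11 receptor genes. In mPFC, 15 genes passed with 22 probes, and 14 of them were ligand genes. All of the 11 receptor genes that passed in blood (Ccr2, Ccr3, Ccr6, Ccr7, Ccr9, Cxcr1, Cxcr2, Cxcr3, Cxcr4, Cxcr5 and Cxcr6) failed the filter in mPFC, where Ccr2, Cxcr1 and Cxcr2 were well above background on 0 of 24 arrays, Ccr6 on 3 and Ccr3 on 4, while Cxcr4 and Ccr9 reached 20 of 24. The receptor gene that passed in mPFC was Cxcr7, an atypical receptor that takes up Cxcl12 and that RefSeq now calls Ackr3. Cxcr7 was well above background on 0 of 24 blood arrays.

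The ligand genes split otherwise. Ccl1, Ccl5, Ccl6, Ccl9, Ccl17, Ccl19, Ccl25, Ccl27a, Cxcl11 and Cxcl16, 10 genes in all, passed in both tissues. Ccl12, Cxcl5, Cxcl12 and Cxcl14 passed in mPFC alone. Cxcl12 and Cxcl14 are made by resident brain cells. The mean signal of Cxcl14 was 10610 in mPFC and 2.87 in blood, where it was above background on 0 of 24 arrays. The mean signal of Cxcl12 (probe A_51_P172502) was 6167 in mPFC and 2.92 in blood. Ccl5, made by T and NK cells, had the opposite order, with a mean signal of 5061 in blood and 56.8 in mPFC. Whether the mPFC signal of Ccl5 came from blood left in the tissue was not tested.

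The other 23 genes passed in neither tissue. They include the inflammatory ligands Ccl2, Ccl3, Ccl4, Ccl7, Cxcl1, Cxcl2, Cxcl9 and Cxcl10. Ccl3 and Ccl4 narrowly failed in blood, where each was well above background on 23 of 24 arrays, and Ccl2 reached 12 of 24 arrays in mPFC. In mPFC, Ccl28 and Ccr8 failed through 1 array each, and Ccr10 was above background on all 24 arrays but dim. Genes above background on 0 arrays of a tissue numbered 11 in blood and 9 in mPFC, and of these nothing but a bound can be given.

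**Figure D1:**
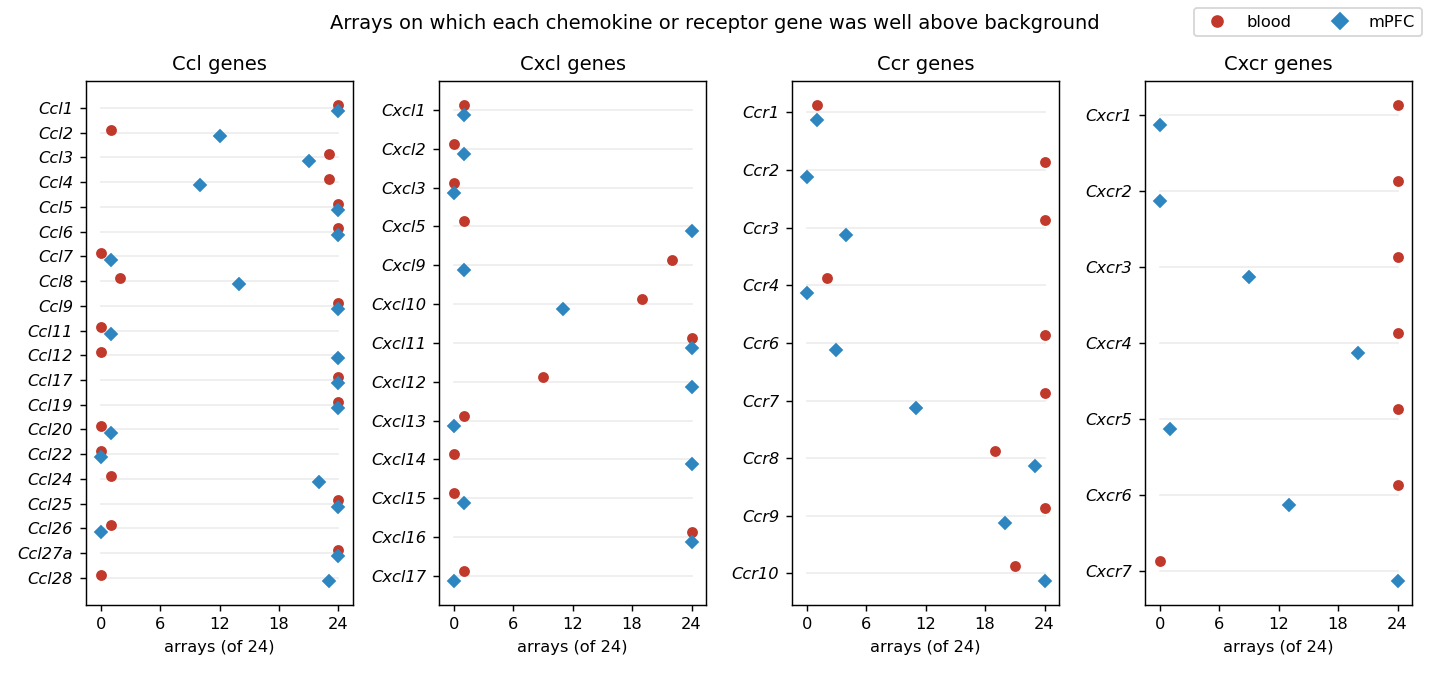
Number of arrays, of 24 per tissue, on which each of the 49 genes was well above background by its most often detected probe, with a panel for each family. Circles (blood) lie at 24 for 5 Ccr and 6 Cxcr genes, and diamonds (mPFC) lie at 24 for Cxcr7 and Ccr10, the last too dim for the filter, and for ligands such as Ccl12, Cxcl5, Cxcl12 and Cxcl14.

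The stress comparison asks whether levels differed between the 12 CUMS-exposed mice and the 12 unstressed mice, averaged over both kinds of surgery. In blood, receptors of lymphocytes and eosinophils were lower after CUMS, by 1.25-fold for a Cxcr6 probe to 1.51-fold for Ccr3, and no receptor was called higher. The ligand Ccl5 was 1.29-fold lower, while 1 probe each of Ccl25 and Ccl19 was 1.51-fold and 1.5-fold higher. Of the 25 probes tested, 10 were called (40%), 2 higher and 8 lower (limma, adjusted p under 0.05), against 10072 of all 20767 probes in blood (48.5%), so the members were not called more often than blood probes at large. Of the 12 receptor probes, 7 fell and 0 rose, with a median log2 difference of -0.34. Of the 13 ligand probes, 1 fell and 2 rose, with a median of -0.03, and the median over all 20767 probes was -0.03. In RNA of a whole tissue, fewer cells of a type and less RNA per cell cannot be told apart.

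Ccr3, the receptor of the eotaxins on eosinophils, was measured by a probe at mm9 chr9:123945225-123945284 (+). Its lowest, median and highest values were 0.56, 0.88 and 1.18 in control, -0.25, 0.16 and 0.69 in CUMS, 0.29, 1.16 and 1.45 in OVX and 0, 0.58 and 0.92 in OVX+CUMS mice. All 12 CUMS-exposed mice lay below the median of the unstressed mice and 5 lay below the lowest of them, so the groups overlapped in part. The CUMS effect was -0.60 ± 0.13 (log2, SE; limma adjusted p = 0.0022). Stressed mice differed from unstressed mice by -0.80 within slide 1 and by -0.78 within slide 3. Slide 2 held CUMS and OVX mice alone, so its CUMS minus OVX difference of -0.67 holds stress and surgery at once.

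Cxcr3, the receptor of effector T cells for Cxcl9 and Cxcl10, was read at mm9 chrX:98926920-98926979 (-). It lay at 0.86, 1.02 and 1.24 in control, 0.11, 0.51 and 1.03 in CUMS, 0.70, 0.96 and 1.15 in OVX and 0.27, 0.46 and 0.69 in OVX+CUMS mice. No OVX+CUMS mouse reached the lowest unstressed mouse, and 3 CUMS mice overlapped with the unstressed mice. The CUMS effect was -0.50 ± 0.10 (limma adjusted p = 0.00127). Cxcr3 differed by -0.56 within slide 1 and -0.53 within slide 3, and by -0.40 for CUMS minus OVX mice on slide 2. Its ligands Cxcl9 and Cxcl10 failed the filter in blood, with 22 and 19 of 24 arrays above background.

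Cxcr6, which binds the membrane-bound ligand Cxcl16 on activated T cells, had 2 probes that overlap at mm9 chr9:123720709-123720778 (+) and are not independent readings. By the brighter probe it lay at 0.73, 1.02 and 1.36 in control, 0.45, 0.78 and 1.21 in CUMS, 1.15, 1.38 and 1.73 in OVX and 0.75, 0.99 and 1.09 in OVX+CUMS mice. OVX and OVX+CUMS mice did not overlap, and 3 of the 6 CUMS mice lay below the lowest control mouse. The CUMS effects of the probes were -0.35 ± 0.10 and -0.32 ± 0.09 (adjusted p = 0.0079 and 0.00828).

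Promoters of these receptors are shown because their genes fell together. The letters are from RefSeq (GRCm38.p6), 300 bases around the annotated start, most of them before it, in the direction of the gene, and capitals mark AGGAAGT or its reverse complement ACTTCCT, a form of the motif bound by ETS factors, some of which are active in lymphocytes. This word was searched on both strands.
Cxcr3 promoter, chrX:101734098-101734397 (-): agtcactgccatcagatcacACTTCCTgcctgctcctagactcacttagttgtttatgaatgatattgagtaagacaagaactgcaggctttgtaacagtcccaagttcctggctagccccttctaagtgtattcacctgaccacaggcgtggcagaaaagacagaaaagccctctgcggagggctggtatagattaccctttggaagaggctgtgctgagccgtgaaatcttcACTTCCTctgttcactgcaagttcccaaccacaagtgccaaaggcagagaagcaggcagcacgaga
Ccr6 promoter, chr17:8235793-8236092 (+): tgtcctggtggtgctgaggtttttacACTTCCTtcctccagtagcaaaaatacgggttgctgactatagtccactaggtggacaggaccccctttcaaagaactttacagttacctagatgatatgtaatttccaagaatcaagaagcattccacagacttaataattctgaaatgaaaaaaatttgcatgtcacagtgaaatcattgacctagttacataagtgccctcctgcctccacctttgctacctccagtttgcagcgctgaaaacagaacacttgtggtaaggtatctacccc
Cxcr6 promoter, chr9:123806227-123806526 (+): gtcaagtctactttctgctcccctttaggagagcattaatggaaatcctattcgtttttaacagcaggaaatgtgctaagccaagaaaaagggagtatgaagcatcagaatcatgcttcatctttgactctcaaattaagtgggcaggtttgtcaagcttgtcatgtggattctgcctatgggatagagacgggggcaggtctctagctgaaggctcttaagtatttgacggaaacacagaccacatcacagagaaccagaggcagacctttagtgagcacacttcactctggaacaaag
The word was found at 2 places for Cxcr3, 1 for this start of Ccr6 and 0 for Cxcr6, and also 0 for Ccr3 and for the other annotated start of Ccr6. It occurs in 3072 of 32851 mouse promoters of this length (9.35%), so a match is a description of the letters only. A second word that was searched, TGACTCA, had 1 match for Ccr3 and 0 for Cxcr3, Cxcr6 and both starts of Ccr6, against 5.2% of promoters. RefSeq promoters were at hand for 34 of the 49 genes and not for Cxcr5, Ccr7 and Ccl5.

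Ccr6, Ccr7 and Cxcr5 guide B cells and naive or memory T cells through lymphoid tissue. Ccr6, the receptor of Ccl20 (mm9 chr17:8449933-8449992, +), lay at 3.26, 3.37 and 3.51 in control, 2.41, 2.92 and 3.33 in CUMS, 3.28, 3.47 and 3.72 in OVX and 2.49, 3.21 and 3.53 in OVX+CUMS mice. Of the 12 CUMS-exposed mice, 9 lay below every unstressed mouse. The CUMS effect was -0.40 ± 0.11 (adjusted p = 0.00557), a 1.32-fold decrease.

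Ccr7, the receptor of Ccl19 that leads cells into lymph nodes (mm9 chr11:99005551-99005610, -), lay at 5.48, 5.89 and 6.05 in control, 4.99, 5.42 and 5.74 in CUMS, 5.66, 5.86 and 5.99 in OVX and 4.64, 5.56 and 5.95 in OVX+CUMS mice. Stressed and unstressed mice overlapped, and 7 stressed mice lay below all unstressed ones. With CUMS the difference was -0.38 ± 0.12 (adjusted p = 0.012).

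Cxcr5, the receptor of Cxcl13 on B cells and follicular T cells (mm9 chr9:44320071-44320130, -), lay at 3.19, 3.51 and 3.63 in control, 2.54, 3.03 and 3.44 in CUMS, 3.61, 3.88 and 4.16 in OVX and 2.60, 3.54 and 3.86 in OVX+CUMS mice. OVX mice were the highest group and CUMS mice the lowest by their medians. Stressed minus unstressed mice gave -0.44 ± 0.13 (adjusted p = 0.00995), and within the slide shared by CUMS and OVX mice all 4 OVX mice (3.61 to 3.89) lay above the 4 CUMS mice (2.73 to 3.44).

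Ccl5, a ligand that T and NK cells themselves release (mm9 chr11:83339296-83339355, -), moved with these receptors. It lay at 5.23, 5.53 and 5.68 in control, 4.86, 5.23 and 5.47 in CUMS, 5.35, 5.68 and 5.92 in OVX and 5.08, 5.16 and 5.46 in OVX+CUMS mice. All 12 stressed mice were below the median of the unstressed mice. The difference with CUMS was -0.36 ± 0.09 (adjusted p = 0.00285).

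**Figure D2:**
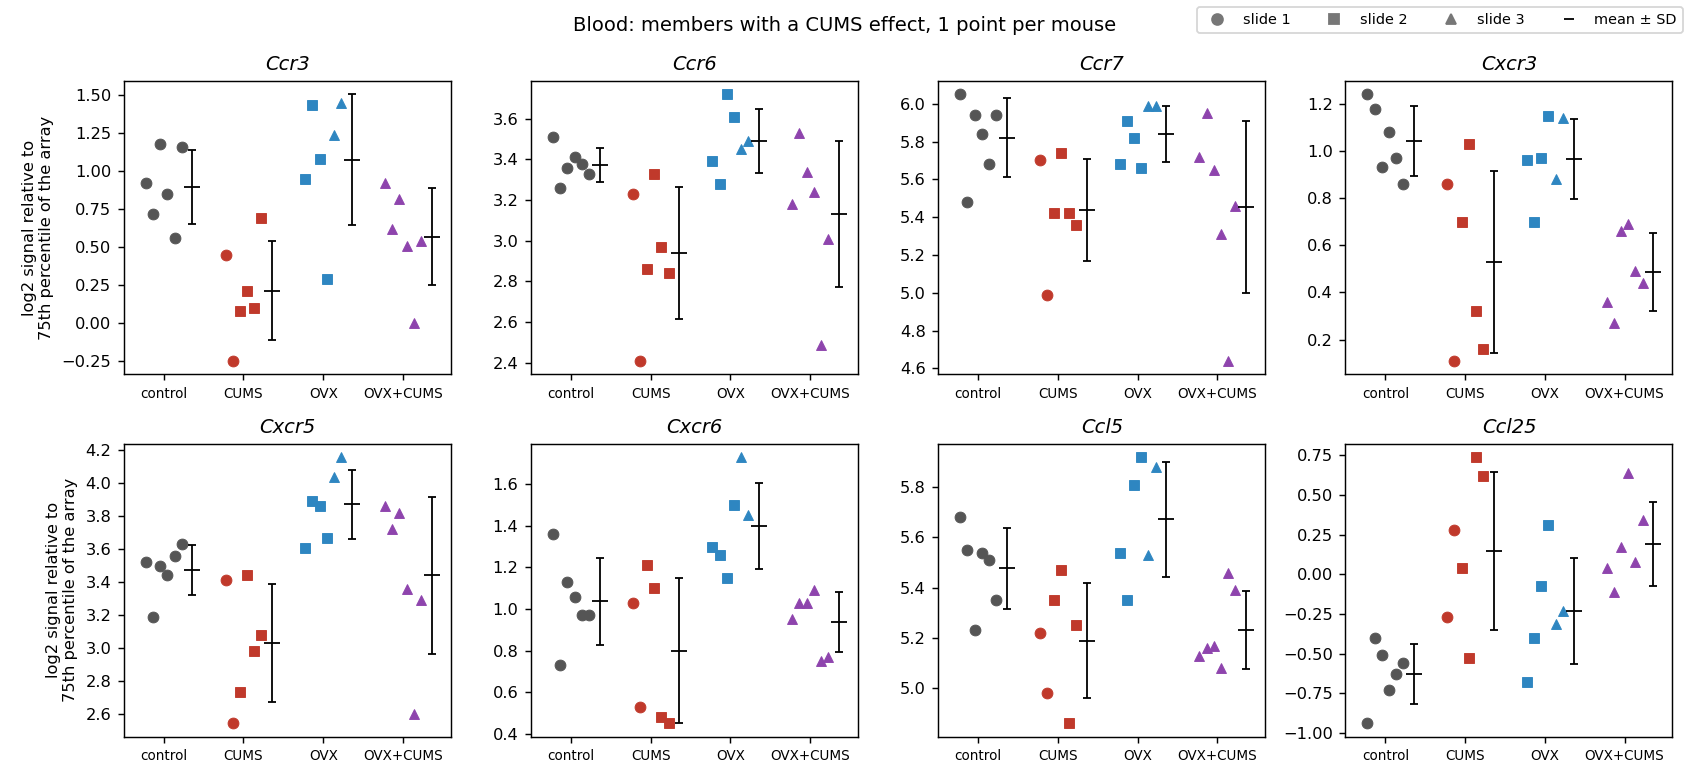
Blood values of 7 members that fell and of Ccl25 by probe A_66_P104618, which rose, after CUMS, as log2 signal relative to the 75th percentile of the array. Each point is 1 mouse, colours are groups, shapes are slides, and bars are the mean ± SD of 6 mice. In the panels of Ccr3, Ccr6, Cxcr3 and Ccl5 the points of CUMS and OVX+CUMS mice lie mostly below those of control and OVX mice, with overlap in each panel.

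Among the ligands, 1 probe each of Ccl25 and Ccl19 was higher after CUMS. Ccl25, a chemokine of thymus and gut (probe A_66_P104618, mm9 chr8:4348678-4348737, +), lay at -0.94, -0.60 and -0.40 in control, -0.53, 0.16 and 0.74 in CUMS, -0.68, -0.27 and 0.31 in OVX and -0.11, 0.12 and 0.64 in OVX+CUMS mice. With CUMS the difference was 0.60 ± 0.13 (adjusted p = 0.0022). This probe shares a word of 20 letters with an array probe for an unnamed transcript, and A_51_P161265, the brightest Ccl25 probe in mPFC, failed the filter in blood with 23 of 24 arrays above background.

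Ccl19, the ligand of Ccr7, has near-identical copies in the mouse genome and its probes may read any of them. Probe A_55_P2127995 lay at -0.32, 0.01 and 0.44 in control, 0.21, 0.73 and 1 in CUMS, -0.35, -0.14 and -0.11 in OVX and 0.19, 0.38 and 0.63 in OVX+CUMS mice. Stressed minus unstressed mice gave 0.58 ± 0.09 (adjusted p = 0.000711). The neighbouring probe A_55_P2127991 gave 0.15 ± 0.20 (adjusted p = 0.527) and was not called. A shift by spike-in RNA in place of the 75th percentile moved the median of all blood probes from -0.03 to -0.33. With it the Ccl25 and Ccl19 probes were no longer called (0.30 and 0.28, limma adjusted p = 0.0884 and 0.0633). The 8 lower calls held, but a downward shift favours lower calls, so it was no test of them. The split under that shift was 0 higher and 12 lower. That 75th percentile was itself lower in CUMS than in OVX mice, as given above, and its part in these higher values was not tested.

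Slide as a block left the stress calls of blood in place. In that fit the CUMS effect is the mean of the differences within slides 1 and 3, so it is not separate from those values. It rests on 2 CUMS beside 6 control arrays and on 6 OVX+CUMS beside 2 OVX arrays. Of those 2 CUMS arrays, that of mouse 2 had the lowest 75th percentile of all blood arrays (54.9). It also had the fewest probes well above background (23602) and the most spots left out (206). Its mean B cell and erythroid marker levels were -0.82 and 1.30, against -0.05 and 0.23 for CUMS mouse 1. The arrays of slide 2 enter its SE but not its estimate. All 10 calls were kept with the same sign, and 3 more were made, with Ccl1 at 0.67, Ccl17 at 0.75 and Ccl6 at -0.54, for 13 of 25 probes against 49.7% of all probes. The blocked effect was -0.79 for Ccr3, -0.54 for Cxcr3, -0.58 for Cxcr5, -0.45 for Ccr6, -0.50 for Ccr7 and -0.43 for Ccl5. In the fit without a block, each of the 10 calls was also kept in all 24 fits that left out 1 array. The blocked fit was not repeated with an array left out. Within slide 1, with 2 CUMS arrays, and within slide 3, with 2 OVX arrays, no member and no other probe was called after adjustment in limma, and 12 and 9 members had an unadjusted p under 0.05.

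**Figure D3:**
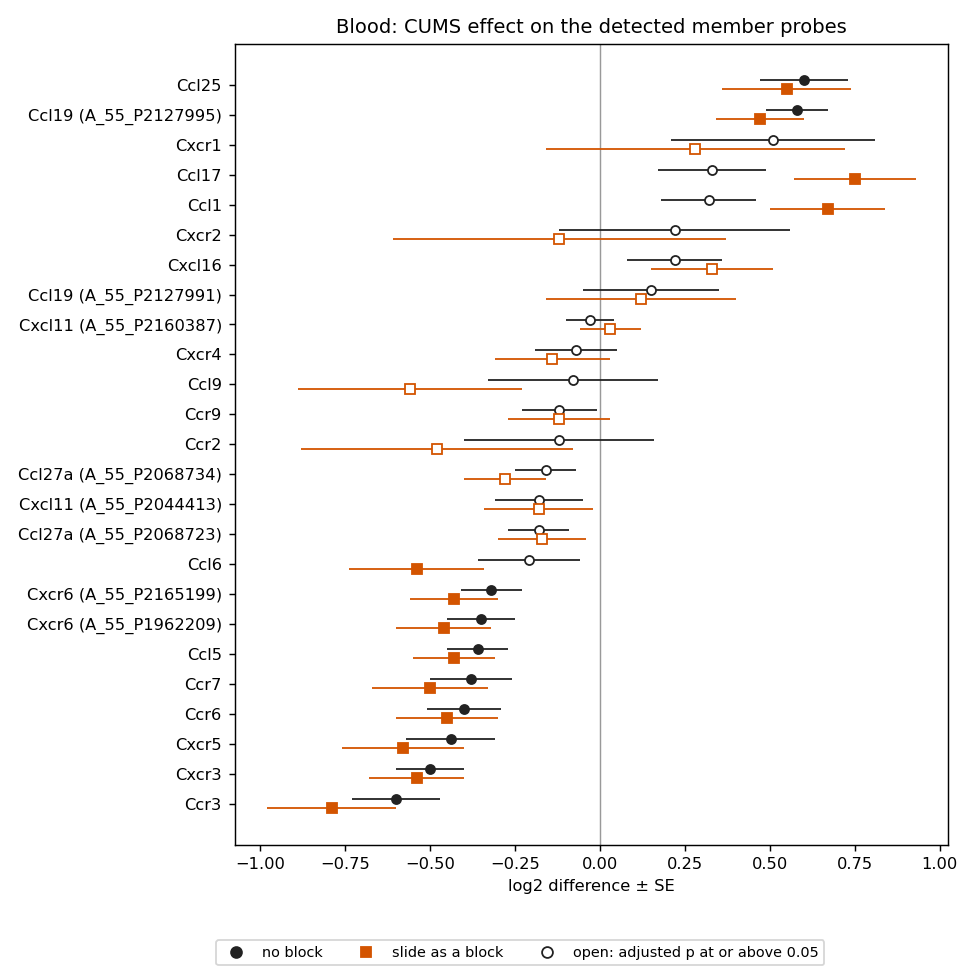
CUMS effect in blood (log2 difference of stressed minus unstressed mice ± SE) for the 25 member probes that passed the filter, without a block (black circles) and with slide as a block (orange squares); filled symbols have an adjusted p under 0.05. The receptors Ccr3, Cxcr3, Cxcr5, Ccr6, Ccr7 and Cxcr6 and the ligand Ccl5 lie below 0 in both fits with filled symbols, and the bars of Cxcr1, Cxcr2, Ccr2 and Ccl9 are the widest of the fit without a block.

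CUMS and OVX mice on slide 2 differed with no slide between them. There, 10 of 25 member probes were called, 5 higher and 5 lower in CUMS mice, against 52.2% of all blood probes. With the spike-in shift, which moved the all-probe median from 0 to -0.43, the split was 0 higher and 11 lower. Lower were Cxcr5 (-0.70), Ccr3 (-0.67), Cxcl11 (A_55_P2044413, -0.52), Ccr6 (-0.50) and a probe of Cxcr6 (-0.48), with adjusted p from 0.0107 to 0.0418. Higher were Cxcr1 (1.07), both Ccl19 probes (0.92 and 0.85), Ccl17 (0.72) and Cxcl16 (0.60), with adjusted p from 0.00708 to 0.0441. This comparison sets stress in sham-operated mice against loss of the ovaries without stress and holds both at once. Cxcr3, Ccr7 and Ccl5 kept their sign (-0.40, -0.28 and -0.42) and were not called, with 4 mice a side. These calls depended on single arrays: leaving out each of the 8 in turn gave 4 calls without CUMS mouse 5, 5 without OVX mouse 2 or 3, 6 without CUMS mouse 6 and up to 13 without CUMS mouse 4. Cxcr5, Cxcl11, Cxcr1 and Ccl19 by A_55_P2127995 were called in all 8 fits, whereas the call was lost in 7 for Cxcl16, in 6 each for Ccr3, Cxcr6 and Ccl19 by A_55_P2127991, in 5 for Ccr6 and in 2 for Ccl17.

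Markers of blood cell types, from lists of textbook markers, were read beside the receptors, against the 48.5% of all blood probes that were called for CUMS. B cell markers were lower after CUMS for 8 of 9 genes (median -0.51), among them Cd79b (-0.53) and Cd22 (-0.51), and their mean level lay at -0.25 to 0.17 in control, -0.82 to -0.05 in CUMS, 0.35 to 0.49 in OVX and -0.87 to 0.30 in OVX+CUMS mice. The -0.87 was that of OVX+CUMS mouse 5, and the other OVX+CUMS mice lay at -0.16 to 0.30. T cell markers fell for 6 of 12 (median -0.27), with Cd3d at -0.40, and their mean level lay at -0.09 to 0.35, -0.15 to 0.14, 0.02 to 0.23 and -0.67 to -0.03 in the same order of groups. Of 6 NK cell markers, 3 fell. Erythroid markers rose for 7 of 8 (median 0.58), and their mean level lay at -0.46 to 0.84 in control, 0.23 to 1.30 in CUMS, -1.01 to 0.22 in OVX and -0.36 to 0.57 in OVX+CUMS mice. Of 6 monocyte and 11 neutrophil markers, 0 and 1 rose and none fell (limma, adjusted p under 0.05). The part of these cell types in the receptor values was not tested.

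The neutrophil and monocyte receptors Cxcr1, Cxcr2 and Ccr2 and the ligands Ccl6 and Ccl9 were not called for CUMS in blood in the fit over all 24 arrays without a block. Cxcr2, the neutrophil receptor for Cxcl1, Cxcl2 and Cxcl5, lay at 0.12, 0.80 and 1.38 in control, 0.64, 1.13 and 2.32 in CUMS, -0.54, 0.60 and 1.97 in OVX and -0.49, 0.19 and 3.42 in OVX+CUMS mice, and its CUMS effect was 0.22 ± 0.34 (adjusted p = 0.599). Cxcr1 lay at -0.81, -0.65 and -0.23, at -0.83, -0.12 and 0.41, at -1.52, -0.98 and -0.24 and at -1.37, -0.91 and 2.48 in the same order, with an effect of 0.51 ± 0.30 (adjusted p = 0.16). The SE of both exceeded that of each lymphocyte receptor, which was at most 0.13.

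Ccr2, which releases monocytes from the marrow, lay at 0.32, 0.86 and 1.30 in control, -0.80, 0.37 and 1.55 in CUMS, 0.75, 1.04 and 1.54 in OVX and 0.39, 1.02 and 3.44 in OVX+CUMS mice. Its CUMS effect was -0.12 ± 0.28 (adjusted p = 0.73). Ccl6 and Ccl9 are ligands made by mouse myeloid cells. Ccl6 lay at 5.11, 5.38 and 5.45 in control, 4.2, 5.08 and 5.56 in CUMS, 5.21, 5.31 and 5.72 in OVX and 4.93, 5.08 and 6.54 in OVX+CUMS mice. Ccl9 lay at 1.63, 1.79 and 2.10, at 0.21, 1.52 and 2.66, at 1.75, 2.13 and 2.62 and at 1.54, 1.91 and 4.01 in the same order.

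The highest value of each of these 5 genes belonged to OVX+CUMS mouse 5. Its mean neutrophil marker level was 2.77 and its mean monocyte level 1.53, where the other 5 OVX+CUMS mice lay at -0.46 to -0.13 and at -0.30 to 0.17. That mouse was at 2.60 for Cxcr5, the lowest of its group. Without it all of the 10 CUMS calls were kept and Ccl6 was called as well (-0.33 ± 0.11, adjusted p = 0.0195, against -0.21 ± 0.15, adjusted p = 0.262, with it). The CUMS effects without it were 0.22 for Cxcr1, -0.06 for Cxcr2, -0.33 for Ccr2 and -0.25 for Ccl9, none of them called, so Cxcr2 changed sign. The OVX effect of Cxcr1 was called without it (-0.63 ± 0.15, adjusted p = 0.00216) and not with it (-0.34 ± 0.30, adjusted p = 0.342).

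**Figure D4:**
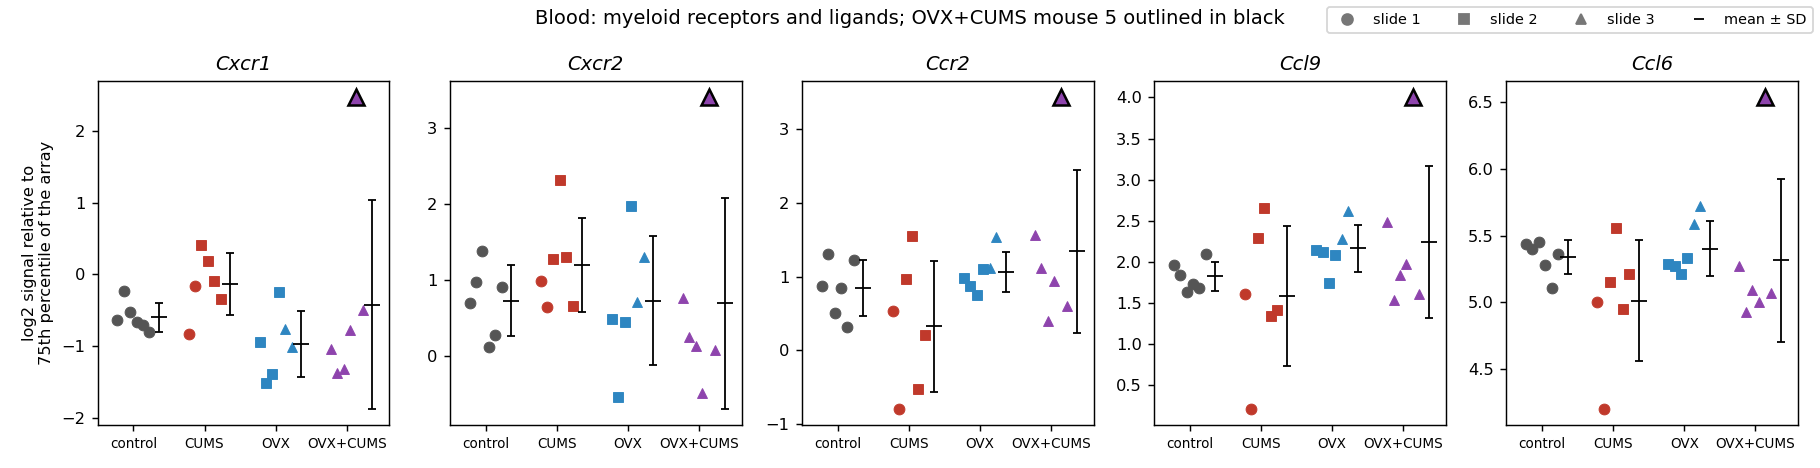
Blood values of Cxcr1, Cxcr2, Ccr2, Ccl9 and Ccl6 as log2 signal relative to the 75th percentile of the array, with 1 point per mouse, shapes for slides and the mean ± SD of 6 mice. OVX+CUMS mouse 5, outlined, lies at 2.48, 3.42, 3.44, 4.01 and 6.54 and is the highest point of each panel.

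Cxcr4, Ccr9, Ccl27a and Cxcl16 were not called for CUMS either. Cxcr4, the Cxcl12 receptor of most white cells, lay at 0.73, 0.78 and 1.17 in control, 0.12, 0.83 and 1.15 in CUMS, 0.55, 1.14 and 1.33 in OVX and 0.66, 1.12 and 1.38 in OVX+CUMS mice (effect -0.07 ± 0.12, adjusted p = 0.654). Ccr9, which guides T cells to the gut by Ccl25, lay at -0.93, -0.24 and -0.11, at -0.50, 0.01 and 0.09, at -0.21, -0.08 and 0.18 and at -1, -0.44 and -0.29 in the same order (-0.12 ± 0.11, adjusted p = 0.359). Ccr9 was higher in CUMS than in control mice and lower in OVX+CUMS than in OVX mice by their medians, and its interaction of -0.76 ± 0.21 missed the threshold (adjusted p = 0.0626).

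Ccl27a, a skin chemokine, has a near-identical copy in the genome. By its brighter probe in blood (A_55_P2068734) it lay at -1.01, -0.88 and -0.65 in control, -1.72, -1.12 and -0.73 in CUMS, -0.99, -0.88 and -0.77 in OVX and -1.11, -0.83 and -0.66 in OVX+CUMS mice. Cxcl16 lay at -1.95, -1.58 and -1.33, at -1.76, -1.46 and -0.78, at -2.66, -2.17 and -1.51 and at -2.24, -1.90 and -1.42 in the same order. Both were dim in blood, near the lower limit of what was tested.

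The comparison of surgery asks whether levels differed between 12 ovariectomized and 12 sham-operated mice, averaged over both levels of stress. In blood, 8 of 25 member probes were called (32%), 4 higher and 4 lower, against 55.1% of all blood probes. With the spike-in shift, which moved the all-probe median from 0.04 to 0.39, the split was 15 higher and 1 lower. Higher in ovariectomized mice were Cxcr5 (0.40 ± 0.13, adjusted p = 0.0119), both overlapping Cxcr6 probes (0.27 and 0.25) and Cxcl11 by probe A_55_P2044413 (0.34). Lower were Ccl17 (-0.81 ± 0.16, adjusted p = 0.00039), Ccl19 by probe A_55_P2127991 (-0.67), Ccl1 (-0.62) and Cxcl16 (-0.49). With slide as a block, 0 of these 8 and 0 of all 20767 probes were called in limma, with 1 member and 1317 probes at an unadjusted p under 0.05, and the differences of Ccl17 and Ccl1 changed sign to 0.03 and 0.08. The call of Cxcl11 was lost without control mouse 2, CUMS mouse 5 or OVX mouse 5. That of the brighter Cxcr6 probe was lost in 12 of 24 fits that left out 1 array, with an adjusted p up to 0.0687 (control mice 2, 5 and 6, CUMS mice 2, 5 and 6, OVX mice 4, 5 and 6, and OVX+CUMS mice 2, 3 and 4). OVX and slide therefore could not be told apart for these genes.

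Ccl17, the ligand of Ccr4, lay in blood at 0.02, 0.28 and 0.94 in control, -0.55, 0.26 and 1.39 in CUMS, -1.08, -0.82 and -0.53 in OVX and -0.46, -0.10 and 0.22 in OVX+CUMS mice. OVX mice lay below the control mice with no overlap, and they shared no slide with them. Ccl1, the ligand of Ccr8 (probe A_55_P2157829), lay at 0.30, 0.59 and 1.02, at -0.21, 0.54 and 1.4, at -0.60, -0.40 and -0.05 and at 0.02, 0.31 and 0.53 in the same order. The other Ccl1 probe was above background on 0 of 24 arrays in either tissue. On slide 2, where both groups lay, Ccl17 of the 4 OVX mice (-1.08 to -0.53) was again low beside the 4 CUMS mice (-0.55 to 0.35).

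Ccl19 by probe A_55_P2127991 lay in blood at -0.20, 0.16 and 1.91 in control, -0.35, 0.10 and 0.61 in CUMS, -1.29, -0.72 and -0.04 in OVX and -0.40, -0.25 and 0.36 in OVX+CUMS mice. Cxcl11 by probe A_55_P2044413 lay at 1.73, 2.46 and 2.85, at 1.49, 1.85 and 2.30, at 2.13, 2.30 and 2.98 and at 2.16, 2.56 and 2.93 in the same order. CUMS mice were the lowest group for this probe. Cxcl11 is listed by RefSeq as a transcribed pseudogene in this assembly.

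The other Cxcl11 probe, A_55_P2160387, needs its letters to be read. It lay at the 99.9th percentile of all probes in both tissues, with a mean signal of 146313 in blood and 197832 in mPFC, and shares words of 20 letters with 7 probes of 7 other genes and with 22 of 32851 promoters (0.067%), while 60 of the 64 member probes share none with a promoter. Its letters 20 to 49 are shown for this reason, with the capitals marking 20 letters that occur in 15 promoters.
Cxcl11 probe A_55_P2160387: agccaGGGCTACACAGAGAAACCCTatctt
Its level is not taken as that of Cxcl11, although it is counted among the member probes. It was not called in any comparison, with values of 10.00 to 10.54 in blood and 8.13 to 8.64 in mPFC.

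Between OVX+CUMS and control mice, 2 of 25 member probes were called in blood, against 6.26% of all blood probes. Ccl25 by probe A_66_P104618 alone was 1.77-fold higher (0.82 ± 0.19, limma adjusted p = 0.00853). No OVX+CUMS mouse (-0.11 to 0.64) overlapped with a control mouse (-0.94 to -0.40) for this probe. Cxcr3 was 1.47-fold lower (-0.56 ± 0.14, adjusted p = 0.0154), again with no overlap. The call of Cxcr3 was lost with normexp background correction (2 members higher, 0 lower) and with the spike-in shift (1 higher, 0 lower). With slide as a block neither was called, and with control and OVX+CUMS arrays on separate slides the group and the slide cannot be told apart. The interaction of surgery and stress was called for 0 members in blood (limma, 5 at an unadjusted p under 0.05), against 1.42% of all probes.

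In mPFC, members were called for surgery and none for stress, and the calls for surgery were lost with slide as a block. For OVX, 9 of 22 member probes were called (40.9%), 6 higher and 3 lower, against 30.9% of all mPFC probes. With the spike-in shift the split was 0 higher and 3 lower, so none of the higher calls was kept. The differences were small, from -0.49 to 0.41 on the log2 scale. Higher in ovariectomized mice were the myeloid ligands Ccl6 and Ccl9, and Ccl17, Ccl25 and Ccl27a. Lower were Ccl1, Ccl19 and Cxcl11, each by 1 of its probes.

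Ccl6 (mm9 chr11:83401997-83402056, -) lay at -2.23, -1.88 and -1.61 in control, -2.01, -1.83 and -1.67 in CUMS, -1.72, -1.69 and -1.53 in OVX and -1.80, -1.65 and -1.19 in OVX+CUMS mice, with an OVX effect of 0.26 ± 0.07 (adjusted p = 0.00752). Ccl9 (mm9 chr11:83388223-83388282, -) lay at -2.18, -2.05 and -1.85, at -2.13, -1.81 and -1.69, at -1.83, -1.64 and -1.30 and at -2.09, -1.79 and -1.61 in the same order, with an effect of 0.24 ± 0.07 (adjusted p = 0.0182). Both genes were higher in OVX than in control mice by their medians, and on slide 2 the CUMS minus OVX difference was -0.22 for Ccl6 and -0.24 for Ccl9, neither of them called.

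Ccl17 (mm9 chr8:97335770-97335829, +) lay at -1.84, -1.80 and -1.45 in control, -1.75, -1.54 and -1.08 in CUMS, -1.69, -1.35 and -1.25 in OVX and -1.51, -1.04 and -0.24 in OVX+CUMS mice. The OVX effect was 0.41 ± 0.11 (adjusted p = 0.00893), against -0.81 for the same probe in blood. The difference between the tissues was not tested.

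Ccl25 was higher by both probes, with 0.15 ± 0.04 for A_51_P161265 and 0.26 ± 0.06 for A_66_P104618 (adjusted p = 0.00359 and 0.00416). By the former, brighter in mPFC, it lay at 0.59, 0.66 and 0.91 in control, 0.60, 0.74 and 0.88 in CUMS, 0.79, 0.88 and 0.94 in OVX and 0.77, 0.86 and 0.89 in OVX+CUMS mice. Ccl27a was higher by probe A_55_P2070576 alone (0.23 ± 0.05, adjusted p = 0.00107), which lay at 3.97, 4.01 and 4.14, at 3.76, 4.12 and 4.16, at 4.2, 4.32 and 4.37 and at 3.97, 4.28 and 4.38 in the same order. This probe shares a word of 20 letters with a probe for Gm13308. The other pair of Ccl27a probes, which overlap and were brighter in mPFC, gave 0.06 and 0.04 and were not called. Their values in mPFC lay at 5.34 to 5.82 for A_55_P2068734 and at 5.06 to 5.57 for A_55_P2068723.

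The lower calls each rested on 1 probe of the gene. Cxcl11 by A_55_P2044413 lay at 1.96, 2.35 and 2.63 in control, 1.01, 1.64 and 2.68 in CUMS, 1.33, 1.61 and 1.71 in OVX and 1.28, 1.42 and 2.25 in OVX+CUMS mice (-0.49 ± 0.14, adjusted p = 0.0115). Ccl19 by A_55_P2127991 lay at -2.08, -1.95 and -1.59, at -2.38, -2.23 and -1.96, at -2.65, -2.49 and -2.23 and at -2.69, -2.47 and -1.94 in the same order (-0.37 ± 0.08, adjusted p = 0.00212). The other pair of Ccl19 probes gave -0.08 and -0.02 and were not called. Ccl1 lay at -3.89, -3.68 and -3.39, at -4.05, -3.88 and -3.34, at -4.15, -4.01 and -3.82 and at -4.27, -4.06 and -3.98 (-0.33 ± 0.07, adjusted p = 0.00155).

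With slide as a block, 0 of the 9 members and 0 of all 28358 mPFC probes were called for OVX in limma, with 1 member and 1880 probes at an unadjusted p under 0.05. Ccl6, Ccl25 (A_66_P104618) and Ccl9 stayed at 0.32, 0.32 and 0.22, while Cxcl11 went to 0.08 and Ccl1 to 0.08. Of 10 microglia markers, 6 were higher in ovariectomized mice without the block (median 0.14), with Trem2 at 0.25 and Aif1 at 0.17, and their mean level lay at -0.11 to 0.01 in control, -0.15 to 0.06 in CUMS, -0.02 to 0.11 in OVX and -0.06 to 0.22 in OVX+CUMS mice. The part of microglia, and that of the slide, in the Ccl6 and Ccl9 values was not tested further.

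**Figure D5:**
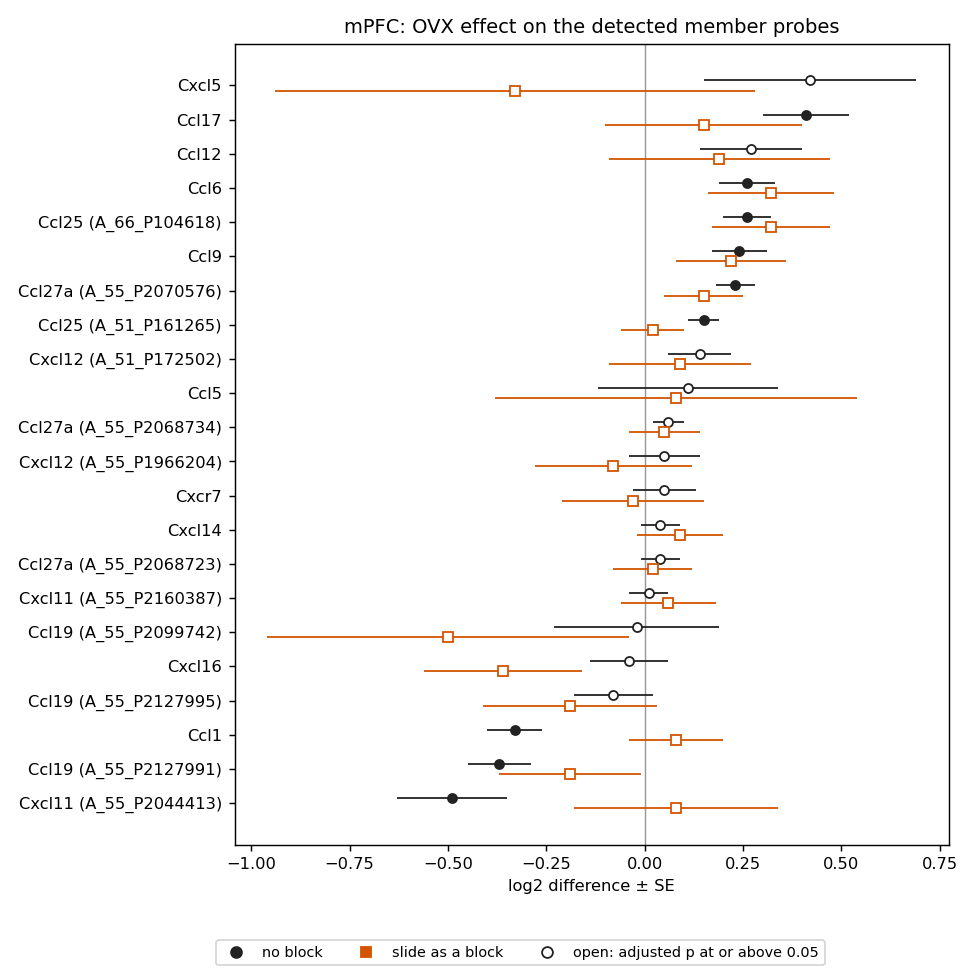
OVX effect in mPFC (log2 difference of ovariectomized minus sham-operated mice ± SE) for the 22 member probes that passed the filter, without a block (black circles) and with slide as a block (orange squares); filled symbols have an adjusted p under 0.05. The 9 filled circles run from -0.49 to 0.41, and no square is filled.

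Ligands of resident brain cells were not called for OVX in mPFC. Cxcl14 lay at 3.81, 4.03 and 4.39 in control, 3.99, 4.10 and 4.21 in CUMS, 4.03, 4.08 and 4.14 in OVX and 3.99, 4.15 and 4.26 in OVX+CUMS mice (0.04 ± 0.05, adjusted p = 0.629). Cxcl12 by its brighter probe lay at 2.78, 3.13 and 3.31, at 3.03, 3.33 and 3.6, at 2.86, 3.34 and 3.48 and at 3.27, 3.42 and 3.73 in the same order (0.14 ± 0.08, adjusted p = 0.167). OVX+CUMS mice exceeded control mice for this probe by 0.33 ± 0.11 (adjusted p = 0.0231), while the other Cxcl12 probe gave 0.02 and was not called. Cxcr7, which takes up Cxcl12, lay at -0.10, 0.20 and 0.57, at 0.28, 0.44 and 0.79, at 0.10, 0.42 and 0.55 and at 0.16, 0.52 and 0.70, and its CUMS effect of 0.18 ± 0.08 was not called (adjusted p = 0.179).

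Ccl5 and Cxcl5 varied between mice in mPFC, with an SD over all 24 arrays of 0.55 and 0.79. Ccl5 lay at -4.32, -3.87 and -2.73 in control, -4.12, -3.67 and -2.70 in CUMS, -4.02, -3.64 and -2.53 in OVX and -4.06, -3.66 and -2.65 in OVX+CUMS mice, with ranges that overlap almost fully. Cxcl5, a neutrophil attractant, lay at -3.41, -2.60 and -2.34, at -4.24, -3.76 and -1.73, at -3.21, -2.44 and -1.58 and at -3.83, -3.20 and -1.68 in the same order. Its CUMS effect of -0.72 ± 0.27 was the greatest of the 22 and was not called (adjusted p = 0.118). Ccl12, a mouse ligand of Ccr2, lay between -3.26 and -1.63 and Cxcl16 between -4.15 and -3.20.

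For CUMS in mPFC, 0 of 22 member probes were called by limma, with 5 at an unadjusted p under 0.05, against 4.19% of all mPFC probes. Cxcl11 by A_55_P2044413 was called without CUMS mouse 1 (-0.39 ± 0.12, adjusted p = 0.0395). The interaction was called for 0 members, with 1 at an unadjusted p under 0.05, against 4.49% of all probes. Between CUMS and OVX mice on slide 2, 0 members were called, with 2 at an unadjusted p under 0.05, against 0.0423%. Between OVX+CUMS and control mice, 9 members were called, 6 higher and 3 lower, against 33.4% of all probes. These were Cxcl11 (A_55_P2044413, -0.79), Ccl17 (0.72), Ccl19 (-0.48), Ccl1 (-0.43), both Ccl25 probes (0.34 and 0.16), Ccl6 (0.33), Cxcl12 (0.33) and Ccl27a (0.21), and none was called with slide as a block. The call of Ccl25 by A_51_P161265 was lost without control mouse 3 or 5, and that of Cxcl12 without control mouse 1 or OVX+CUMS mouse 3. With the spike-in shift, which moved the all-probe median from 0.06 to -0.20, 8 were called, 1 higher and 7 lower. With quantile normalization 6 were called, 3 higher and 3 lower, and the 75th percentile of detected probes gave the same split. With normexp background correction 7 were called, 5 higher and 2 lower.

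Partner genes of the chemokine system, from textbook lists, were set beside the members. Of 15 other chemokine system genes on the array, 8 passed in blood. There Ccrl2 (0.41) and Darc (0.50), a chemokine-binding protein of red cells, rose with CUMS and Cd74 (-0.44), the receptor of Mif, fell. Of 27 signalling genes downstream of the receptors in blood, 1 rose and 11 fell with CUMS, with a median of -0.25, against 48.5% called among all blood probes. Among those that fell were Pik3cg (-0.46), Grk6 (-0.39), Dock2 (-0.38) and Adrbk1 (-0.28), which carry or end the signal in white cells, and Plcb2 (0.27) rose. With OVX, 12 of the 27 rose and 1 fell in blood, against 55.1% of all blood probes, and none of these OVX calls was kept with slide as a block.

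In mPFC, 9 of the other chemokine genes passed, among them Cx3cl1 and Cx3cr1, the neuron-to-microglia pair. Cx3cr1 was higher with OVX (0.22 ± 0.05, adjusted p = 0.00387), and Cx3cl1 was not called (0.05 ± 0.04, adjusted p = 0.314). Of 25 signalling genes in mPFC, 8 rose and 0 fell with OVX, with a median of 0.10, against 30.9% called among all mPFC probes. With slide as a block none of these OVX calls, that of Cx3cr1 included, was kept.

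Within a mouse, levels in blood were set against those in mPFC for the 13 member probes of 10 genes that passed in both, as deviations from the group means over 24 mice. No member was called, and none had an unadjusted p under 0.05, against 52 of 17544 probes (0.296%). Pearson's r ran from -0.21 to 0.43 and was positive for 9 of the 13. It was highest for Ccl6 (r = 0.43, permutation p = 0.0748; rho = 0.26, permutation p = 0.238; adjusted p = 0.414) and fell to 0.18 without the 2 mice farthest from the median of blood. Cxcl11 by A_55_P2044413 had r = 0.40 (permutation p = 0.0602; rho = 0.38, permutation p = 0.0885; adjusted p = 0.467), and Ccl5 had r = 0.35 (permutation p = 0.122; rho = 0.34, permutation p = 0.127; adjusted p = 0.543). Without 2 mice these were 0.61 and 0.51.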

How the data were processed

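RNA was measured on Agilent one-colour mouse 8x60K arrays. The intensity of each spot was deposited as the authors' scanner output, with background subtraction and spatial detrending by version 10.7.3.1 of Feature Extraction, with mm9 probe positions and no scaling between arrays. The log2 values were deposited with the 75th percentile of each array subtracted by the authors in GeneSpring. It matched the values computed here within 0.001, up to 1 constant per array, for 100% of probes with 1 spot. Spots marked uneven or as outliers were left out, and 0 spots were saturated.

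Under R 4.3.3, with data.table at version 1.17.8, limma 3.58.1 was fitted to surgery, stress and their interaction, with two-sided tests and Benjamini-Hochberg adjustment over all probes that passed the filter, at 0.05. In the marker and partner lists and in figures of single genes, a gene is represented by its brightest probe that passed. Of the genes the name rule takes in, 1 is not reported here and was left out of all member counts. Members named with values were those called, up to 12 genes per comparison, and receptors and ligands from a preset list where they passed. The members and lists were chosen with earlier results of these data known. Covariation calls, with their unadjusted and adjusted p-values, came from the t-test of the correlation. The permutation p-values of r and rho, for members only, came from 1e+05 permutations of mice within groups. Within groups, arrays correlated at 0.9469 to 0.9896 over probes, the mice were separate animals, and the number of arrays limits the precision. Alternatives were background correction, normalization, scaling, filter, moderation, the authors' values, slide and replicate blocks, and leaving out each array. Models were tested on simulated data. RefSeq matched 49 of 49 genes by name, and its promoters were at hand for 34 of them. No protein sequences or gene models of mm9 were used here.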

Additional observations from a re-analysis of the deposited data

Results flagged for a closer look

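Of 188 groups of 6 mice tested over the member probes that passed, 15 (7.98%) held a value far from the rest, where chance flags about 1 in 20 groups. In blood, OVX+CUMS mouse 5 stood above its group for Ccl6 (6.54, the next mouse at 5.27), Cxcr1 (2.48, next -0.50) and Cxcr2 (3.42, next 0.76). Also above their groups in blood stood control mouse 6 for Ccl19 (A_55_P2127991, 1.91, next 0.25) and OVX mouse 2 for Ccl27a (A_55_P2068723, -0.32, next -1.03), and OVX mouse 4 stood below its group for Ccl19 (A_55_P2127995, -0.35, next -0.19). In mPFC, OVX+CUMS mouse 6 stood above its group for 2 Ccl19 probes (A_55_P2099742, -1.32, next -2.64, and A_55_P2127995, -1.95, next -2.39) and below it for Ccl27a (A_55_P2068734, 5.34, next 5.56). OVX+CUMS mouse 3 stood above its group for both Cxcl11 probes (A_55_P2044413, 2.25, next 1.52, and the repeat-like A_55_P2160387, 8.64, next 8.31) and below it for Cxcl12 (A_55_P1966204, 0.77, next 1.32). CUMS mouse 6 stood above its group for Cxcl5 (-1.73, next -3.74), CUMS mouse 1 below its group for Ccl27a (A_55_P2070576, 3.76, next 4.03) and OVX mouse 1 below its group for Cxcl12 (A_51_P172502, 2.86, next 3.26). No cause was tested for these values. They were not removed from any comparison above, except in the fits that left out 1 array and in the correlations without 2 mice.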

How the results depend on the processing

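Counts are of member probes called by limma. For OVX in blood the 8 calls became 15 with normexp background correction, 16 with the spike-in shift (15 higher, 1 lower, on an all-probe median of 0.39), 18 with no detection filter and 0 with slide as a block. For CUMS in blood the 10 calls lay between 10 and 13 under every alternative, and the spike-in shift gave 12, none higher. The blood interaction gave 1 with normexp, and OVX+CUMS against control gave 1 with the spike-in shift and 0 with the slide block. With normexp OVX+CUMS against control in blood gave 2, both higher, and the call of Cxcr3 was lost. CUMS against OVX on the shared slide gave 5 of 10 without moderation. In mPFC, OVX gave 3 of 9 with the spike-in shift and 0 with the slide block, CUMS gave 1 with the spike-in shift, the interaction 1 with a filter by group, OVX+CUMS against control 0 with the slide block, and the shared slide 8 with no filter. OVX+CUMS against control in mPFC gave 6 of 9 with quantile normalization or the 75th percentile of detected probes. The cause was not tested. With the slide block the OVX effect turned to 0.03 for Ccl17 and 0.08 for Ccl1 in blood, and to 0.08 for Cxcl11 and 0.08 for Ccl1 in mPFC. In mPFC, OVX+CUMS against control turned to -0.04 for Ccl25 (A_51_P161265), 0.06 for Cxcl11 and 0.2 for Ccl1 with the slide block, and to -0.1 for Ccl25 (A_51_P161265) and -0.05 for Ccl27a with the spike-in shift. Leaving out 1 array gave 6 to 12 (blood OVX), 10 to 12 (blood CUMS), 0 to 3 (blood interaction, 3 without CUMS replicate 2), 2 to 3 (blood OVX+CUMS against control), 4 to 13 (blood shared slide), 9 to 10 (mPFC OVX), 0 to 1 (mPFC CUMS), 8 to 10 (mPFC OVX+CUMS against control) and 0 to 0 for the other comparisons. Replicate numbers did not pair the mice: same-numbered arrays of different groups correlated at -0.51 to 0.49 in blood and -0.23 to 0.39 in mPFC. With the replicate number as a block the counts were 8, 10, 0 and 2 in blood and 9, 0, 0 and 10 in mPFC for OVX, CUMS, the interaction and OVX+CUMS against control. Signal over background limits the dim probes, which were near the filter in blood for Cxcl16 and Ccl27a.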
